A study of Homo sapiens with 12 samples.

Results

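BEX2, TCEAL9 and IRS4 are 3 genes on the long arm of the X chromosome. They were chosen by their read counts in these libraries: the reads in BEX2 and IRS4 were nearly lost in the knockdown and those in TCEAL9, a relative of BEX2, were lowered far less. All peaks with at least 1 base in the RefSeq body of these genes (GRCh38) were taken, which gave 7 of the 9958 deposited peaks. TCEAL9 held 5 of them, BEX2 held 1 and IRS4 held 1. The knockdown against control values of these peaks chose the genes, so they are given as a description with no test.

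The study profiled 7-methylguanosine (m7G) in polyadenylated RNA of THP-1, an established human line of monocytic leukemia, by sequencing RNA fragments pulled down with an antibody against the modified base. All cells, control and knockdown alike, had received the phorbol ester PMA at 100 ng/ml for 48 h, which makes THP-1 cells adherent. The control, NC, which the series calls wildtype, was compared with KD, cells carrying a short hairpin against METTL1 (shMETTL1), a methyltransferase that writes internal m7G in tRNA and mRNA. From each, 3 immunoprecipitates (IP) and 3 libraries labelled IN, taken here as the input RNA, were sequenced, giving 4 groups of 3 libraries. The sources used here do not say whether replicates were separate cultures, whether KD is 1 clone or a pool, or NC carried a control hairpin, so p values measure the spread between these libraries alone. Reads in peak regions summed to 907024 to 1105477 in the 6 IN libraries and to 1476384 to 1888972 in the 6 IP libraries. No peak of the table overlapped METTL1, so the knockdown of its transcript was not checked here.

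BEX proteins (brain expressed, X-linked) and TCEAL proteins (transcription elongation factor A-like) are small, related proteins from a gene cluster at Xq22. BEX proteins are abundant in brain and are best known as partners of signalling and transcription proteins, while TCEAL9, also known as WBP5, is a small nuclear member of the TCEAL family. IRS4 belongs to another pathway. It is an insulin receptor substrate, a docking protein that is phosphorylated by insulin and IGF1 receptors and recruits PI3 kinase and GRB2, and it was first characterised in HEK293 embryonic kidney cells.

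On GRCh38, BEX2 lies on the minus strand at X:103309346-103310990 and TCEAL9 on the plus strand at X:103356506-103358462, with 45515 bases between them. IRS4 lies on the minus strand at X:108719946-108736563, 5361483 bases beyond TCEAL9. The promoters are shown because these genes moved in the same direction and because a TCEAL9 peak reaches into its window. Each sequence is the 250 bases before the gene start in RefSeq (GRCh38.p14), read 5′ to 3′ along the gene's strand. For IRS4, which had 2 starts in that table, the outermost was used. Capitals mark the GC box (GGGCGG, or CCGCCC on the other strand), a site of SP1-type factors, and the E box (CACGTG), a site of MYC- and USF-type factors.
BEX2 chrX:103310991-103311240 (minus): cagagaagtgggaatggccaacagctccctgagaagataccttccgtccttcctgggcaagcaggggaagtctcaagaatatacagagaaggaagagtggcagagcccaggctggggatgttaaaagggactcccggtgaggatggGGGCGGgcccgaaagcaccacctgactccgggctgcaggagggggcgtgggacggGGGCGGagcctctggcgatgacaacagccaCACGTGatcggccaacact
TCEAL9 chrX:103356256-103356505 (plus): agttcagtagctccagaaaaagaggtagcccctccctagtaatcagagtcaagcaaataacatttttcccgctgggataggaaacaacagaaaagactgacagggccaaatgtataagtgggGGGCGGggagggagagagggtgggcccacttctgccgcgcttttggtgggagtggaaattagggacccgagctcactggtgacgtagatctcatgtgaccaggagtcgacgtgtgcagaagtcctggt
IRS4 chrX:108736564-108736813 (minus): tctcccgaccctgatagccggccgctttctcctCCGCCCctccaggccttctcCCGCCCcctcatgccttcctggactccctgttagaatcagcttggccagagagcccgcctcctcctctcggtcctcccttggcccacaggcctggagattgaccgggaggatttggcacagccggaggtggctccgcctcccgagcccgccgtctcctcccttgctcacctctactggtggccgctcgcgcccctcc

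The BEX2 window held 2 GC boxes, whose first bases lie 104 and 49 bases before the start, and 1 E box that begins 19 bases before it. TCEAL9 held 1 GC box, beginning 128 bases before the start, and no E box. IRS4 held 2 GC boxes, beginning 217 and 197 bases before the start, and no E box. None of the windows held CCAAT or TATAAA on either strand. A GC box was present in 42.6% of all 35116 promoter windows of this length, an E box in 6.34%, CCAAT in 32.0% and TATAAA in 10.7%. The E box of BEX2 is thus the least common of the matches. GC content was 61.2% in BEX2, 52.8% in TCEAL9 and 68% in IRS4, against a median of 58% over all windows, and the windows held 11, 8 and 16 CpG dinucleotides against a median of 11. A match describes letters and is not a measured site.

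The 7 peaks marked 5 places. BEX2 had 1 place of 271 bases (X:103309674-103309944), 1046 to 1316 bases from the 5′ end of a gene of 1645 bases. IRS4 had 1 place of 272 bases (X:108734522-108734793), 1770 to 2041 bases from the 5′ end of a gene of 16618 bases. TCEAL9, of 1957 bases, had 3 places. The first (X:103356488-103356668) straddled the gene start: its first 18 bases are the last 18 bases of the promoter sequence shown above, and it also overlapped the long non-coding RNA LOC124905204. The second was called in both conditions, at X:103357056-103357296 in NC and X:103357086-103357296 in KD. The third was also called in both, at X:103357594-103357774 in NC and X:103357594-103357834 in KD. The BEX2, IRS4 and first TCEAL9 places were called in NC alone, so 5 of the 7 peaks came from the NC set of 4950 peaks and 2 from the KD set of 5008. All 7 peaks carried the strand of their gene and 6 lay wholly inside it. Exons and untranslated regions were not analysed here. Paired peaks at the second and the third place share nearly all their reads and are not separate evidence. Values below are those of the NC peak unless stated.

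BEX2 was well covered in control cells and all but missing from knockdown cells. Its place held 346, 279 and 310 reads in the NC IN libraries (replicates 1 to 3) and 507, 358 and 491 in the NC IP libraries. In knockdown it held 1, 0 and 2 reads in the IN libraries and 2, 1 and 1 in the IP libraries. The control libraries were all high and close to each other, the knockdown libraries all near 0, and the groups did not overlap. In CPM, counts scaled to the total of the tested regions by the TMM method, BEX2 stood at 357.75 ± 4.99 (SD, n = 3) in NC IN and 1.06 ± 1.09 in KD IN. The ratio was 352-fold lower in KD in the IN libraries, with a 95% counting interval of 120 to 1711. In IP it was 266.9 ± 43.1 CPM in NC and 0.729 ± 0.299 in KD, a ratio 367-fold lower in KD with an interval of 143 to 1347. Intervals cover counting error only. In bulk RNA, fewer cells that carry a transcript and less of it in each cell cannot be told apart.

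IRS4 showed the same loss from a lower level. Its place held 72, 37 and 90 reads in NC IN and 117, 102 and 125 in NC IP. In knockdown 1 read was found in the first IN library, and the other two IN libraries and all 3 IP libraries held 0. The control IN libraries were more scattered than for BEX2, at 75.4 ± 28.6 CPM (SD, n = 3), and even the lowest stood far above every knockdown library. The ratio was 225-fold lower in KD in the IN libraries, but it rests on 1 knockdown read and its 95% counting interval runs from 39.9 to 8925. In IP, IRS4 stood at 68.1 ± 9.20 CPM in NC. Set against a floor of 3 reads over the 3 KD libraries, it was 124-fold lower in KD. The 95% counting interval of the IP ratio starts at 100-fold.

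TCEAL9 kept a clear signal in the knockdown at all 3 places. The third place, the most covered, held 2024, 1675 and 1845 reads in NC IN and 881, 1049 and 779 in KD IN. It held 2148, 1698 and 1918 reads in NC IP and 1325, 1348 and 991 in KD IP. All control libraries lay above all knockdown libraries once scaled, at 2123 ± 8.44 CPM (SD, n = 3) in NC IN against 915 ± 79.7 in KD IN, and 1134 ± 75.1 in NC IP against 664 ± 46.2 in KD IP. The fitted log2 KD over NC was -1.21 ± 0.10 (SE) in IN and -0.77 ± 0.10 in IP, which is 2.32-fold and 1.71-fold lower.

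The other TCEAL9 places ran the same way. The second held 581, 599 and 467 reads in NC IN against 282, 287 and 204 in KD IN, and 696, 642 and 592 in NC IP against 403, 364 and 238 in KD IP. Its fitted log2 change was -1.28 ± 0.15 (SE) in IN and -1.07 ± 0.14 in IP. The first, at the gene start, held 360, 355 and 249 reads in NC IN against 178, 210 and 131 in KD IN, and 323, 383 and 344 in NC IP against 264, 251 and 147 in KD IP. After scaling its groups did not overlap either, with log2 changes of -1.08 ± 0.18 (SE) in IN and -0.80 ± 0.18 in IP. The 3 places of the gene thus gave input ratios between 2.12-fold and 2.43-fold lower in KD.

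**Figure D1:**
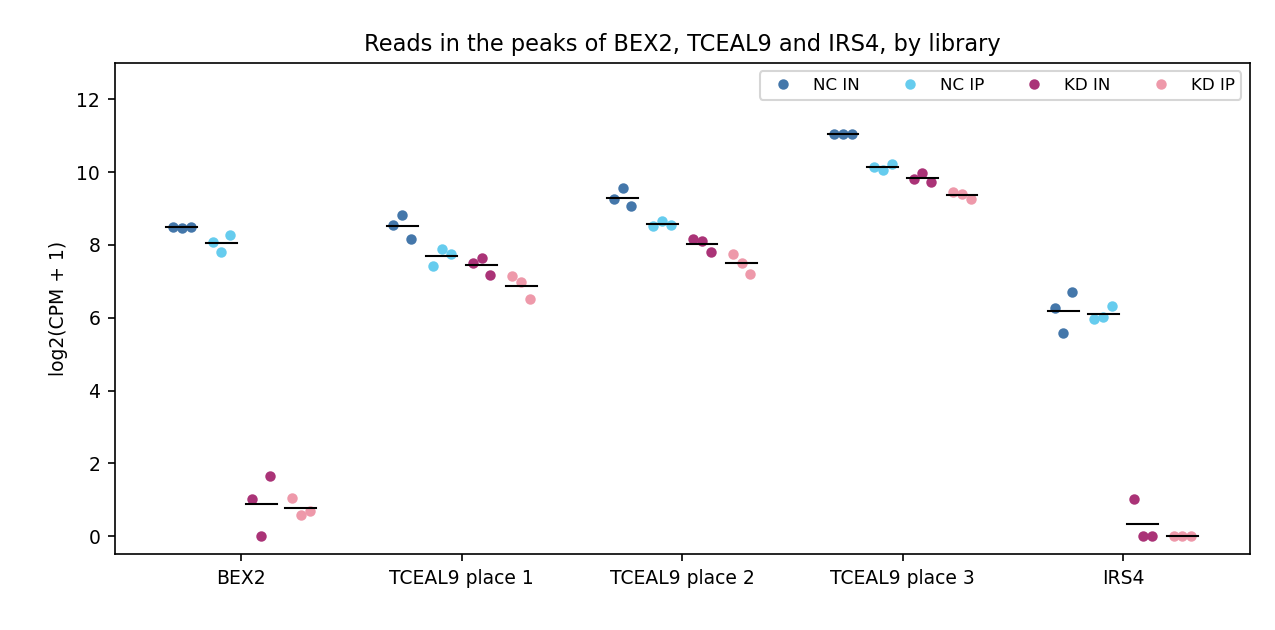
Scaled reads, as log2(CPM + 1), in the 5 places of BEX2, TCEAL9 and IRS4. Each point is 1 library (3 per group), bars are group means of the plotted values and colours are the 4 groups. BEX2 and IRS4 drop to near 0 in KD, whereas the TCEAL9 places step down from NC to KD (input log2 changes of -1.08 to -1.28) and from IN to IP.

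All 7 peaks had every KD library below every NC library, in IN and in IP. Over all 5113 tested regions, 24.6% did so in IN and 28.3% in IP. By adjusted p under 0.05 (edgeR), 21.9% of all tested regions were called lower and 17.9% higher in KD in the IN libraries, 39.8% in all. In IP the calls were 20.1% lower and 20.9% higher, 41.0% in all. The median log2 KD over NC of the 7 peaks was -1.28 in IN and -1.06 in IP, against -0.01 and 0.05 over all tested regions. Nothing is read from this difference, since these values chose the genes.

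A ratio inside each library needs no scaling between libraries. For every 1000 reads in the third TCEAL9 place (KD peak), the NC IN libraries held 162, 158 and 159 BEX2 reads. The KD IN libraries held 1.05, 0 and 2.36. The control ratio was nearly constant, 160 ± 1.99 (SD, n = 3), and every KD library lay far below every NC library, which restates the choice of these genes without scaling. For IRS4 the same ratio was 33.6 ± 12.7 in NC IN, and 1.05, 0 and 0 in the KD IN libraries. The first TCEAL9 place held 166 ± 36.4 reads per 1000 in NC IN and 176 ± 18.8 in KD IN, a difference smaller than the spread between libraries. The second place held 283 ± 50.3 reads per 1000 in NC IN and 264 ± 28.8 in KD IN, which overlapped. In IP it held 315, 370 and 299 in NC against 295, 262 and 232 in KD, without overlap, and this difference was not tested.

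Per kilobase of peak, the third TCEAL9 place was the highest in NC IN at 11729 ± 46.6 CPM per kb (SD, n = 3), followed by the second at 2635 ± 460 and the first at 2051 ± 445. BEX2 stood at 1320 ± 18.4 CPM per kb and IRS4 at 277 ± 105. The second and first TCEAL9 places overlapped between libraries, while the other neighbours in this order did not. In NC IP the order was the same, but BEX2 (985 ± 159 CPM per kb) overlapped the first TCEAL9 place (1153 ± 189). In KD IN the third TCEAL9 place held 5055 ± 441 CPM per kb, and BEX2 and IRS4 held 3.92 ± 4.02 and 1.24 ± 2.16.

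Whether the pulldown favoured these regions was not part of the choice of genes. However, every tested region is a peak that the authors called by IP over input in these data. The test therefore cannot show enrichment as such, only how a region stands among called peaks. IP over IN compares a region with the average tested peak region, so a negative value means less enriched than that average. In NC, TCEAL9 was lower in IP at all 3 places. The log2 IP over IN was -0.83 ± 0.17 (SE, edgeR adjusted p = 0.000358) at the gene start, -0.74 ± 0.14 (adjusted p = 0.000108) at the second place and -0.90 ± 0.10 (adjusted p = 5.1e-08) at the third. BEX2 was also lower in IP, at -0.42 ± 0.15 (edgeR adjusted p = 0.0247). That BEX2 call is fragile: it was lost with library size alone as the scaling (-0.13, adjusted p = 0.496), under DESeq2 (-0.36), without a filter, with 1 region per cluster of overlapping peaks, and without any of the 3 NC IN libraries or NC IP replicate 1 or 2 (-0.29 to -0.41). IRS4 was not called at -0.15 ± 0.30 (edgeR adjusted p = 0.697), and its sign turned under other settings (0.14 with library size alone). With their NC libraries, 6 of the 7 peaks were called lower and 0 higher. The 5 TCEAL9 peaks among them mark 3 places of 1 gene and are not separate evidence. Of all tested regions 24.0% were called lower and 22.7% higher in NC, 46.7% in all.

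In the knockdown, TCEAL9 again was lower in IP. The log2 IP over IN was -0.55 ± 0.18 (SE, edgeR adjusted p = 0.0173) at the gene start, -0.52 ± 0.15 (adjusted p = 0.00542) at the second place and -0.46 ± 0.10 (adjusted p = 0.0005) at the third. The call at the gene start was lost with library size alone (-0.38) and without KD IN replicate 2 (-0.45) or KD IP replicate 3 (-0.38). All 5 TCEAL9 peaks, which mark 3 places of 1 gene, were called lower. Of all tested regions 21.4% were called lower and 23.5% higher, 44.9% in all. BEX2 and IRS4 had 7 and 1 reads over the 6 KD libraries, too few for a value. The authors' deposited table gives fold enrichments above 1 for all 7 peaks, from 1.78 at the first and the third TCEAL9 places in NC to 3.07 in IRS4, with 2.27 in BEX2. How those folds were computed is not given in the sources used here, and they are not on the scale above.

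**Figure D2:**
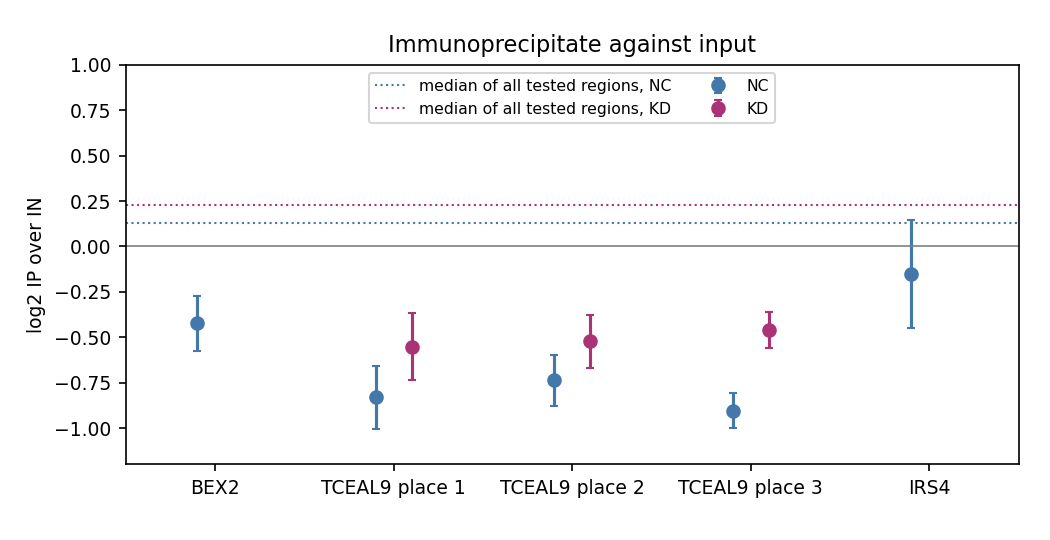
Fitted log2 IP over IN (y axis) for the 5 places, in NC and KD, with standard errors (n = 3 libraries per group). Dotted lines are medians over all tested regions (0.13 in NC and 0.23 in KD), and BEX2 and IRS4 have no KD value for lack of reads. The TCEAL9 places lie between -0.46 and -0.90, below these medians in both conditions.

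The question the study's design puts to these genes is whether enrichment itself changed with the knockdown, that is IP over IN in KD against IP over IN in NC. For TCEAL9 the difference was positive at each place and passed the threshold at none. It was 0.28 ± 0.25 (log2, SE, edgeR adjusted p = 0.695) at the gene start, 0.21 ± 0.20 (adjusted p = 0.713) at the second place and 0.44 ± 0.14 (adjusted p = 0.228) at the third. At the second place the sign turned to -0.02 without NC IN replicate 2. At the third place it ran from 0.28 to 0.50 for the NC peak (adjusted p 0.0803 to 0.396), which has no value with 1 region per cluster, and from 0.26 to 0.47 for the KD peak (adjusted p 0.0982 to 0.434) over the alternatives run. By edgeR no region at all was called, 0% of 5113, with 610 at an unadjusted p under 0.05. DESeq2 called 21. In the authors' deposited table the log2 change was 0.32 at the third place (NC peak, adjusted p = 0.369), -0.26 in BEX2 (adjusted p = 0.957) and -10.67 in IRS4 (adjusted p = 0.910), the last from 0 KD IP reads. A change in enrichment of BEX2 or IRS4 was not measurable at this depth.

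The other tested members of the BEX and TCEAL family also fell in the knockdown, with smaller folds than BEX2. Of 14 listed members 5 had a peak, and all 3 that are not among the chosen genes were called lower in KD, in IN and in IP. The background share is the 21.9% (IN) and 20.1% (IP) given above. TCEAL4, another TCEAL protein, held 2687, 2287 and 2576 reads in NC IN and 956, 854 and 823 in KD IN, and fell by 1.69 ± 0.10 on the log2 scale (SE, edgeR adjusted p = 7.1e-13). In IP it fell by 1.45 ± 0.09 (adjusted p = 7.7e-12). BEX4, a tubulin-associated BEX protein, held 111, 83 and 80 reads in NC IN and 13, 12 and 23 in KD IN, and fell by 2.67 ± 0.33 (adjusted p = 3.9e-07).

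BEX1, the closest relative of BEX2, held 73, 25 and 45 reads in NC IN and 22, 24 and 38 in KD IN, and these groups overlapped. It fell by 0.91 ± 0.35 in IN (log2, SE, edgeR adjusted p = 0.0403). That call was lost under 7 alternatives, among them without NC IN replicate 1 (-0.50, adjusted p = 0.317), KD IN replicate 1 (-0.69) or KD IN replicate 2 (-0.73). In IP the reads were 110, 67 and 98 in NC against 41, 25 and 23 in KD without overlap, and BEX1 fell by 1.73 ± 0.33 (adjusted p = 0.000155). BEX1 and BEX2 are paralogs whose sequences were not compared here, and how reads that match several genes were counted is not given in the sources used here, so the split of reads between them is uncertain. TCEAL4 did not differ between IP and IN in NC beyond its error (log2 0.01 ± 0.09, adjusted p = 0.940). In KD it was called higher in IP (0.25 ± 0.09 SE, edgeR adjusted p = 0.0294). The TCEAL9 places were lower in IP in both conditions. That difference between genes was not tested.

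Around the family on Xq22, 7 of 36 listed neighbours were tested. In KD, 3 were called lower and 0 higher in IN, against 21.9% and 17.9% of all tested regions. RPL36A, a ribosomal protein, fell by 1.80 ± 0.19 (log2, SE, edgeR adjusted p = 2.4e-08), CENPI, a centromere protein, by 2.01 ± 0.25 (adjusted p = 6.2e-07) and HNRNPH2, a splicing factor, by 0.66 ± 0.16 (adjusted p = 0.00148). ARMCX4 was not called (0.37 ± 0.30, adjusted p = 0.343). In IP, 3 were called lower and 2 higher, against 20.1% and 20.9% of all tested regions.

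**Figure D3:**
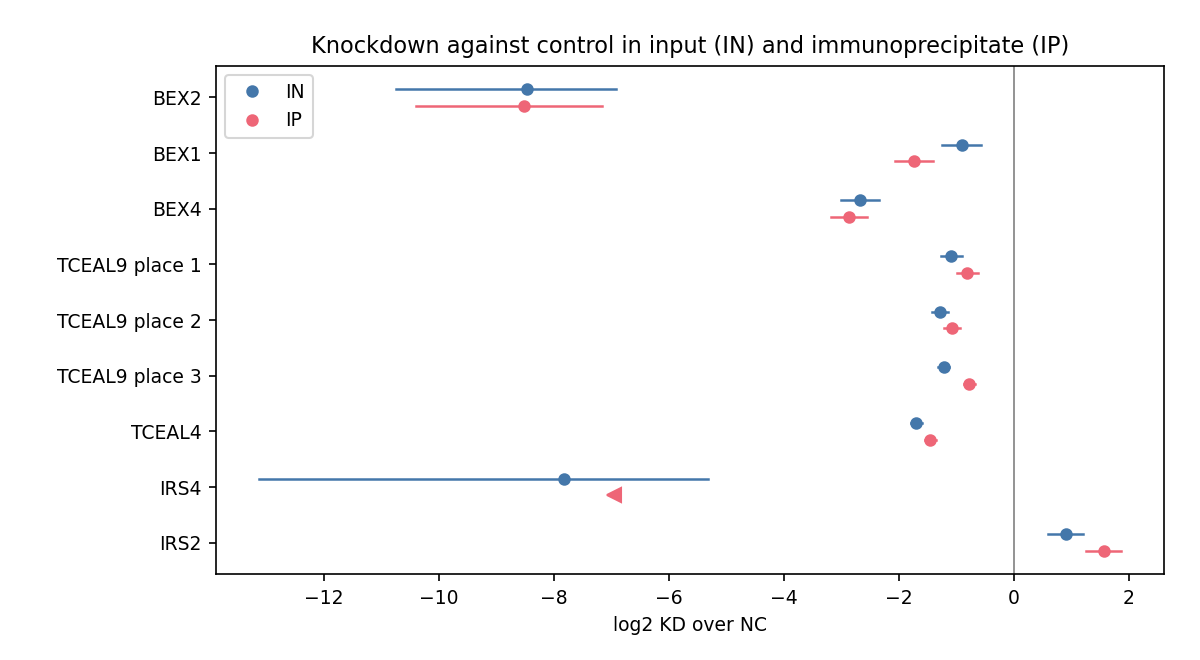
Log2 KD over NC (x axis) in IN and IP for the 5 places and their tested relatives. Points for BEX2 and IRS4 are ratios of summed reads with 95% counting intervals. The arrowhead marks IRS4 in IP, 124-fold lower against a floor of 3 reads. All other points are fitted values with standard errors (n = 3 libraries per group). BEX1, BEX4 and TCEAL4 lie below 0 but well above BEX2, and IRS2 lies above 0, opposite to IRS4.

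Among the other insulin receptor substrates, IRS2 rose in the knockdown and IRS1 could not be tested. IRS2, the docking protein that macrophages and liver also use, held 32, 28 and 18 reads in NC IN and 49, 65 and 52 in KD IN. The KD libraries were all above the NC libraries, and IRS2 rose by 0.91 ± 0.30 (log2, SE, edgeR adjusted p = 0.0192). This call was lost without NC IN replicate 3 (0.76, adjusted p = 0.0691) or KD IN replicate 2 (0.86, adjusted p = 0.0533). In IP it rose by 1.57 ± 0.30 (adjusted p = 0.000162). IRS1 had too few reads to test, 2 in NC IN and 14 in KD IN over 3 libraries each. Of the receptors, IGF1R had 8 reads in NC IN and 3 in KD IN, and INSR had 0 and 3, so neither was tested.

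Of 55 listed genes of insulin and IGF signalling, 33 had a peak and 19 besides IRS4 were tested. In IN, 5 were called higher and 1 lower in KD, and in IP 8 higher and 2 lower. Over all tested regions 17.9% were higher and 21.9% lower in IN, and 20.9% and 20.1% in IP. The list's median log2 change in IN was -0.00018, near that of all regions. In IP the median was 0.63, above the 0.05 of all tested regions. The list was not tested as a set, so nothing particular to its genes is read from these values. Among those that rose were PIK3R1, the regulatory subunit of the PI3 kinase that IRS proteins recruit (1.71 ± 0.26 SE, edgeR adjusted p = 9.3e-06), and GRB2, the adaptor that links receptors to RAS (0.71 ± 0.16, adjusted p = 0.00104). GAB2, another docking protein, rose by 0.94 ± 0.15 (adjusted p = 1.8e-05), and IGF2R, the receptor that clears IGF2, by 0.61 ± 0.11 (adjusted p = 5.6e-05). The gene that fell in IN was FOXO4, a forkhead factor downstream of AKT, at -0.87 (adjusted p = 0.00927) in IN and -1.25 in IP.

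Transcription elongation genes, named for the process that gave TCEAL proteins their name, showed no common direction. Of 33 listed, 22 had a peak and 14 were tested. In KD, 3 were called higher and 2 lower in IN, against 17.9% and 21.9% of all tested regions. The lower pair, SSRP1 (-1.16 ± 0.09 SE, edgeR adjusted p = 2.9e-10) and SUPT16H (-0.94 ± 0.15, adjusted p = 1.7e-05), form the FACT histone chaperone. ELOC, a subunit of elongin, rose by 0.80 ± 0.19 (adjusted p = 0.00181) and ELL2, a super elongation complex subunit, by 0.87 ± 0.30 (adjusted p = 0.0244, and 0.0646 without KD IN replicate 2).

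Markers of other cell types moved with BEX2 and IRS4. Of 27 listed markers of HEK293 and neuroepithelial cells, 14 had a peak and 11 were tested. In KD, 9 were called lower and 1 higher in IN, against 21.9% and 17.9% of all tested regions. The summed level of the 11 genes was 7297 to 8012 CPM in the NC IN libraries and 841 to 931 in KD IN. In IP it was 6276 to 7101 CPM in NC against 634 to 673 in KD. NEFM alone made up most of the NC sum, and MAP1B (591 CPM) and NEFH (296 CPM) most of the KD IN sum. The neurofilament genes NEFM and NEFL fell from 5483 ± 211 (SD, n = 3) to 1.59 ± 2.76 CPM and from 626 ± 118 to 2.17 ± 3.77 CPM in IN. The homeobox gene HOXC8 fell from 412 reads to 2 in IN, a ratio of 233 with a 95% counting interval of 64.0 to 1928. EEF1A2, an elongation factor of neurons and muscle, fell from 181 ± 42.2 to 2.67 ± 3.12 CPM in IN. In IP, HOXC8 fell from 499 reads to 4, and EEF1A2 from 59.9 ± 17.8 to 8.54 ± 2.32 CPM. KRT18 and LIN28B were at 0 reads in KD IN, 52.0-fold and 71.9-fold lower against the floor of 3 reads. Their 95% counting intervals start at 41.7-fold and 57.9-fold. In IP they held 77 and 89 reads in NC against 4 and 5 in KD. NEFH ran the other way and rose by 1.12 on the log2 scale. MAP1B fell by 0.44 in IN (edgeR adjusted p = 0.0011) and was not called in IP (-0.07, adjusted p = 0.597), and PEG10 was called in neither. The part of these cells' RNA in the loss of BEX2 and IRS4 was not tested.

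Of 40 listed leukocyte and macrophage markers, 17 had a peak and 11 were tested. In KD, 9 were called higher and 1 lower in IN, against 17.9% and 21.9% of all tested regions. The summed level of the 11 genes was 1678 to 1874 CPM in NC IN and 3569 to 3872 in KD IN. ARHGDIB, a gene abundant in blood cells, rose by 1.59 ± 0.12 (log2, SE, edgeR adjusted p = 1.8e-10), HCLS1, a cytoskeletal protein of blood cells, by 1.11 ± 0.13 (adjusted p = 2.4e-07) and LAPTM5, a lysosomal protein of leukocytes, by 0.97 ± 0.12 (adjusted p = 7.4e-07). CPVL, a carboxypeptidase of macrophages, fell from 64 reads to 1 in IN, a ratio of 72.3 with a 95% counting interval of 12.5 to 2900, but held 10 reads in each condition in IP (log2 -0.13, edgeR adjusted p = 0.914). CD68 and CD74 were covered in NC IN at 103 and 37.1 CPM. LYZ and ITGAM had 1 read each there and 8 and 4 in KD IN, too few to test. In IP, LYZ had 17 reads in NC and 7 in KD, and ITGAM had 2 and 4. Of the fibroblast markers 1 of 14 was tested, COL3A1, and it was not called (-0.26 ± 0.42, adjusted p = 0.655).

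**Figure D4:**
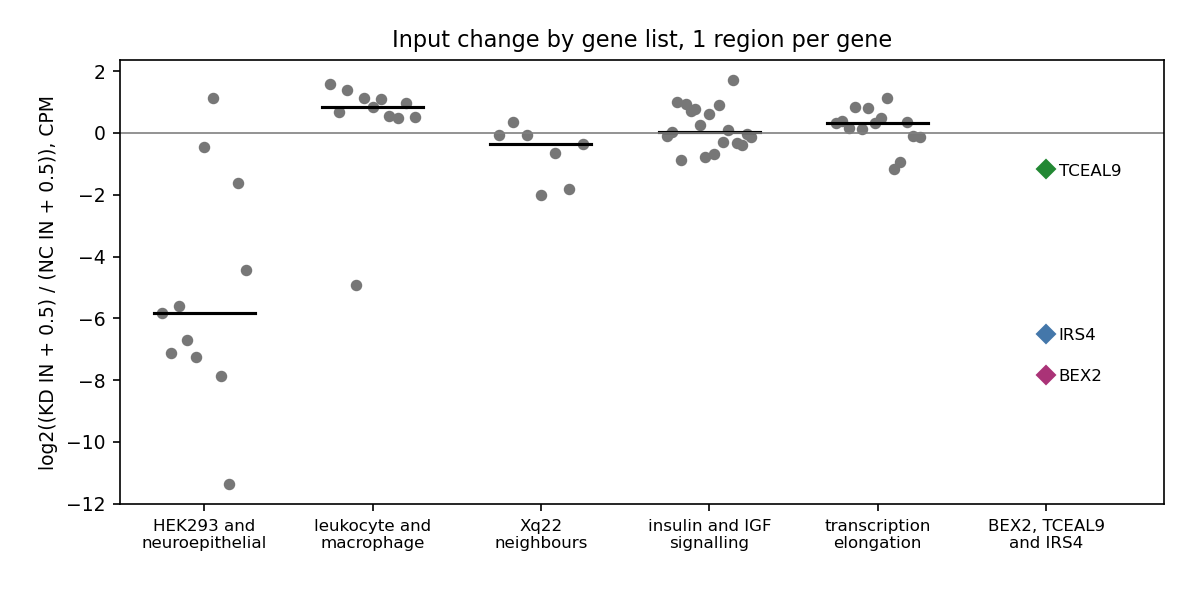
Log2 of KD IN over NC IN, from mean CPM plus a pseudocount of 0.5, for 1 region per gene. Grey points are the tested genes of 5 lists, bars are list medians, and diamonds are BEX2, TCEAL9 (the third place, KD peak) and IRS4. BEX2 (-7.84) and IRS4 (-6.50) lie below the median of the HEK293 and neuroepithelial markers (-5.84), and TCEAL9 (-1.18) lies just below the lowest elongation gene (-1.16).

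The genes most like each member over the 12 libraries were sought among 2573 genes. The measure was the root mean square difference of log2 CPM, each gene centred on its own mean. It includes the NC to KD change that chose the members, so genes near a member share that change by construction. The likeness is thus a description and no separate support. The genes closest to BEX2 were NEFL (0.53), DSP, a desmosome protein (0.63), MAP9, a microtubule-associated protein (0.71), FLNA, an actin cross-linker (0.81), and HOXC8 (0.82). For IRS4 they were MAP9 (0.48), LMOD1 (0.58), HOXC8 (0.60), CALD1 (0.64), an actin-binding protein, and KIF1A, a neuronal kinesin (0.65). MAP9 and HOXC8 stand on both lists. Like BEX2 they were high in control, at 119 ± 13.1 and 158 ± 16.3 CPM (SD, n = 3) in NC IN, with 0 and 2 reads in KD IN.

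For TCEAL9 the KD peak of the third place was used. The genes closest to it were TIMM44, a mitochondrial import subunit (0.11), POLE3, a histone-fold subunit of DNA polymerase epsilon (0.14), SSRP1 (0.16), AAMP (0.16) and DDX27, an RNA helicase (0.17). TIMM44 went from 266 ± 16.4 CPM (SD, n = 3) in NC IN to 122 ± 18.8 in KD IN, and POLE3 from 2987 ± 110 to 1455 ± 84.3, steps much like that of TCEAL9. Distances are not compared between members, since those of BEX2 and IRS4 include libraries near 0 reads and those of TCEAL9 do not.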

How the data were processed

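The submitters' processing notes name fastp 0.23.4 for the 12 libraries and GRCh38 as build; the aligner, peak caller and counter are not given in the sources used here. The authors deposited 1 table of 9958 peaks with raw read counts per peak and library. The same deposited table holds the authors' fold enrichment (a ratio) and p-values for each peak call, and a log2 change in enrichment with its p-values. All 12 count columns were mapped to a library.

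Peaks were matched to RefSeq gene bodies of GRCh38 with at least 1 base of overlap. Counts were fitted over all peaks with edgeR 4.0.16 (R 4.3.3): filterByExpr (minimum count 10, minimum total 15) kept 5113 regions and all 7 peaks of the 3 genes, with TMM scaling. Contrasts of the 4 group means were tested by the two-sided quasi-likelihood F test with 8 residual degrees of freedom, Benjamini-Hochberg adjusted over all regions, and called at an adjusted p under 0.05. CPM are relative to reads in tested peak regions. Correlations of same-numbered deviations were all weak, between -0.09 and 0.07. For KD IN against KD IP they were 0.048 to 0.063, each above the best other-numbered value (-0.0068 to -0.00044). The other pairs of groups did not show this for every number. Pairing was not part of the main fit. Among the alternatives, replicate number was run as a block, and so was replicate number within each condition. The latter takes same-numbered IN and IP libraries as pairs, which the sources used here do not state. Replicates differed by more than counting noise, so none was a duplicate. Scripts were tested on simulated data.

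The members and lists were chosen with earlier results of these data known. Named genes are all tested BEX, TCEAL and IRS genes, the 4 smallest p values in IN of each other list, and the 5 nearest genes of each member. NEFH, MAP1B, PEG10, KRT18, LIN28B, FOXO4, CD68, CD74, LYZ, ITGAM, INSR and IGF1R were named after their values were seen.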

Additional observations from a re-analysis of the deposited data

How the results depend on the processing

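With 1 region per cluster of overlapping peaks, 3493 regions were tested, against 5113. Calls of IP over IN then numbered 1481 in NC and 1376 in KD, against 2389 and 2296. With library size alone the median log2 IP over IN went up to 0.42 (NC) and 0.40 (KD), against 0.13 and 0.23, and the NC calls became 1597 higher and 778 lower, against 1161 and 1228. Calls of a change in enrichment rose from 0 to 21 with DESeq2 and 45 without a filter. They rose to 16 with replicate number within each condition as a block. When 1 library was left out they ranged from 0 to 1. The cause was not tested. Leaving out 1 library gave 1960 to 2623 calls of IP over IN in NC, 1960 to 2495 in KD, and 1934 to 2091 (IN) and 1723 to 2206 (IP) calls of KD over NC. The replicate number as a block gave 2274, 2220, 0, 1987 and 2002 calls for IP over IN in NC, in KD, the change in enrichment, and KD over NC in IN and IP, and changed no call of the 3 genes.

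The IRS4 value of IP over IN in NC turned positive with library size alone (0.14), without a filter (0.0137) and with 1 region per cluster (0.0117), and ran from -0.35 to 0.20 when 1 library was left out, the last without NC IN replicate 3. The change in enrichment at the second TCEAL9 place ran from -0.0195 (without NC IN replicate 2) to 0.34 for the NC peak, with -0.00048 without KD IN replicate 3, and from -0.0153 to 0.34 for the KD peak. KD over NC of COL3A1 ran from -0.43 to 0.0904 in IN and from -0.0449 to 0.47 in IP, and that of CPVL in IP from -0.45 to 0.30. None of these was called where its sign turned, and the cause was not tested. Of the other values of the 3 genes under an alternative, 540 kept their direction. Tested values among these kept their side of the threshold. KD over NC values, which had no test, moved by less than 1 SD between replicates. A call was lost by 12 values (9 in BEX2 and 3 at the first TCEAL9 place). Another 6 values, all KD over NC, moved by more than 1 SD between replicates. Among them were BEX2 in IN (-9.20 without KD IN replicate 3) and IRS4 in IN (-9.67 without KD IN replicate 1, which held its only KD read).

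The peaks numbered 6 when wholly inside the gene body and 7 with an adjusted p of the authors' call under 0.05. Depth limits BEX2 and IRS4 in KD, where 7 and 1 reads allow no enrichment value. Sums cover peak regions alone, so sequencing depth is unknown.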
